A study of Mus musculus with 5 samples.

Results

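The constitutive proteasome subunits measured here are 36 mouse genes named Psma, Psmb, Psmc or Psmd with a number, leaving out the interferon-inducible Psmb8, Psmb9 and Psmb10. They were chosen by name from 19938 genes with at least 1 probe set of a single symbol in the platform annotation, and the naming rule itself uses no measured value, except that brightness picks among probe sets of a gene. They had 42 probe sets in all, with the one of highest mean used for the 5 genes that had several. Gene expression was measured in heart grafts of C57BL/6 mice aged 8 weeks, placed in the abdomen of C57BL/6 recipients, and each graft was hybridised to an Affymetrix Mouse Gene 1.0 ST array of its own. Hearts 2553, 2555 and 2557 were kept for 18 h at 4 °C in University of Wisconsin solution before implantation (I/R, n = 3). Hearts 2554 and 2556 were implanted without this storage (non-I/R, n = 2). The labels give harvest at 24 h for all 5 grafts, whereas the text of the study gives day 2. Their treatment field repeats the cold storage for every sample, so the groups follow the tissue field. Such a graft is perfused through its aorta but does not pump blood for the recipient, and transplantation is common to both groups. Values are log2 signals made with RMA by the authors, and differences are given as I/R minus non-I/R.

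The proteasome is the protease that degrades proteins tagged with ubiquitin. Its core particle is a barrel of stacked rings: the outer rings of Psma subunits hold a gate, and the inner rings of Psmb subunits hold the active sites. A regulatory particle of Psmc ATPases and Psmd subunits binds tagged proteins, removes the ubiquitin, unfolds the chain and feeds it into the core. In heart muscle the proteasome clears damaged and misfolded proteins and takes part in the turnover of contractile proteins. When it is overloaded, the transcription factor NRF1 (gene Nfe2l1) is known to raise the subunit genes together through antioxidant response elements in their promoters, and the related factor NRF2 (Nfe2l2) binds the same elements.

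These elements were looked for in the promoters because NRF1 is known to act through them. RefSeq windows from 250 bases before to 50 bases after the start (GRCm38.p6) were at hand for 29 of the 36 genes, without Psma8, Psmb1, Psmb2, Psmb7, Psmc3, Psmd3 and Psmd7. The element core TGACNNNGC, searched on both strands, was found in 5 of the 29 genes (17.2%) and in 14.0% of all 27025 genes of the promoter table. The CCAAT box, also searched on both strands, was found in 12 of the 29 genes (41.4%) and in 41.1% of all genes. No member held both motifs, which 5.81% of all genes did, so matches in the members did not overlap. The 5 matches of the element core are shown with up to 10 bases on each side, 5′ to 3′ in the direction of the gene, with the match in capitals. In Psmc6 and Psmd12 the match lies on the opposite strand, so its reverse complement is printed. The matches begin at -47, -9, -31, -227 and -247 relative to the start, in the order shown.
Psmb5 (chr14:54618024-54618052, minus strand): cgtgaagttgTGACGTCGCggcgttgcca
Psmb6 (chr11:70525338-70525366, plus strand): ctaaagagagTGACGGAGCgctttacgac
Psmd9 (chr5:123228149-123228177, plus strand): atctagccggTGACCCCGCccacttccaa
Psmc6 (chr14:45329587-45329615, plus strand): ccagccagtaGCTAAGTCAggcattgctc
Psmd12 (chr11:107479278-107479299, plus strand): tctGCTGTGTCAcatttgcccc
A match of letters is no evidence of binding, and a window without one may lack only these letters. The genes with the element core differed between the groups by -0.01 (Psmb5), -0.04 (Psmb6), -0.03 (Psmd9), 0.14 (Psmc6) and -0.02 (Psmd12) on the log2 scale. None of these differences had an unadjusted p under 0.05 by limma. The CCAAT box was found in Psma1, Psma2, Psma3, Psma6, Psma7, Psmb3, Psmb11, Psmc1, Psmc2, Psmd4, Psmd10 and Psmd14, whose differences are given with their subcomplexes.

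The subunits differed little between I/R and non-I/R grafts. All 36 differed by at most 1.25-fold, with a median log2 difference of 0.033 over the 36 genes, against a median of -0.0079 over the 21789 probe sets tested and of 0.027 over those with a mean log2 signal of at least 7. Differences ran from -0.16 for Psmb7 to 0.32 for Psmd11. The I/R mean was higher for 21 genes and lower for 14, and it was equal for Psmb11. Under 1.2-fold lay 35 of 36 members (97.2%), compared with 75.3% of all probe sets tested and 60.4% of those with a mean of at least 7. The median size of a difference in either direction was 0.071 for the members, 0.10 for all probe sets and 0.19 for those with a mean of at least 7.

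None of the 36 genes passed an adjusted p of 0.05 by limma, and none of the 21789 probe sets tested did (0.0%). At an unadjusted p under 0.05, limma gave 1 member higher, Psmc1, and 1 lower, Psmb7, which is 2 of 36 (5.56%) where 15.0% of all probe sets passed. In each direction apart, 7.64% of all probe sets were higher and 7.35% lower. Of those with a mean of at least 7, 24.0% passed, 13.3% higher and 10.7% lower. The methods' t-test kept only Psmc1. A p above the threshold does not show equal levels, so the 95% intervals of the differences are given as well. For 32 of 36 members (88.9%) the whole interval lay within 1.5-fold of no difference, which held for 69.8% of all probe sets and for 53.9% of those with a mean of at least 7. The exceptions were Psmd11 (-0.23 to 0.88 on the log2 scale), Psmd6 (-0.43 to 0.66), Psmd10 (-0.45 to 0.61) and Psmd5, whose upper bound of 0.585 lay just past the log2 of 1.5.

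**Figure D1:**
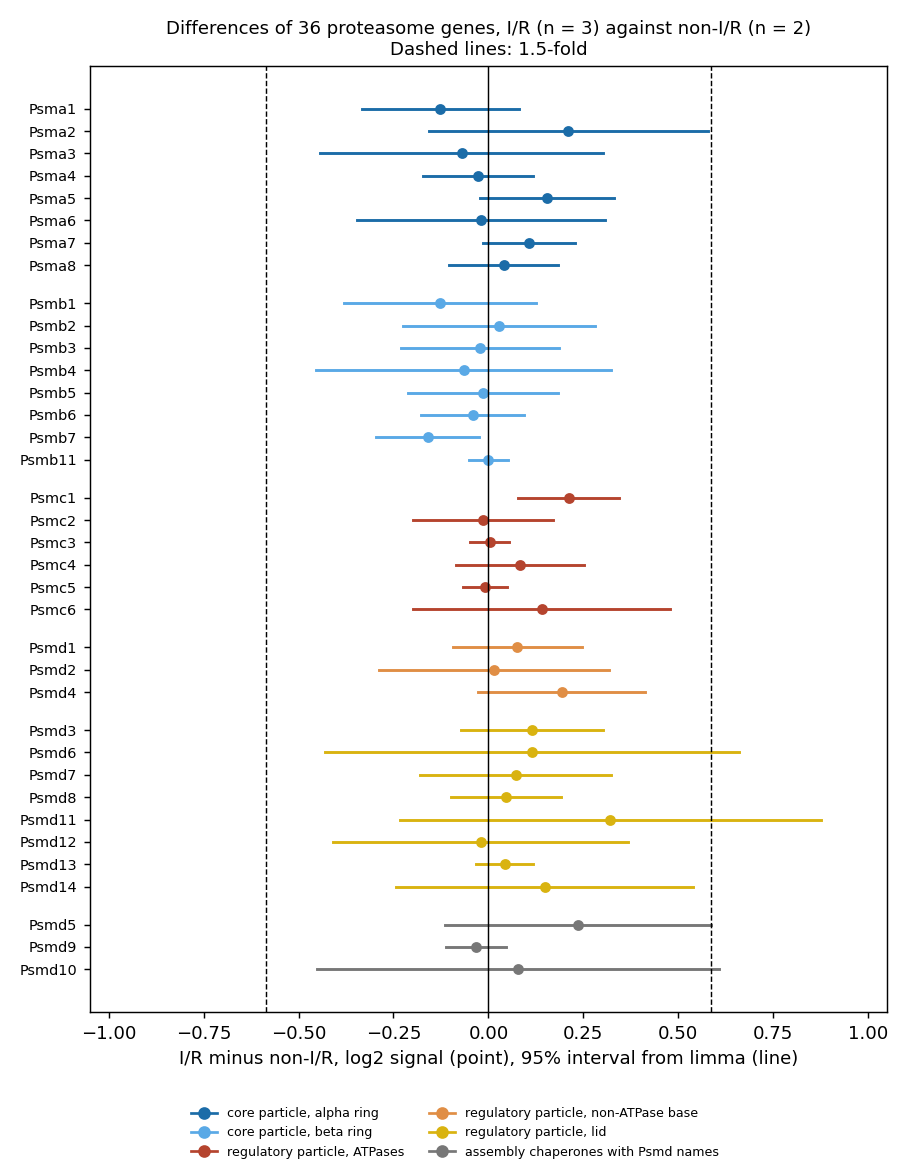
Log2 signal of the 3 I/R grafts minus that of the 2 non-I/R grafts (x axis) for each of the 36 genes (y axis, coloured by subcomplex), with the 95% interval from limma as a line and dashed lines at 1.5-fold. Intervals of Psmc1 and Psmb7 leave out 0, and the widest reaches 0.88 for Psmd11.

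**Figure D2:**
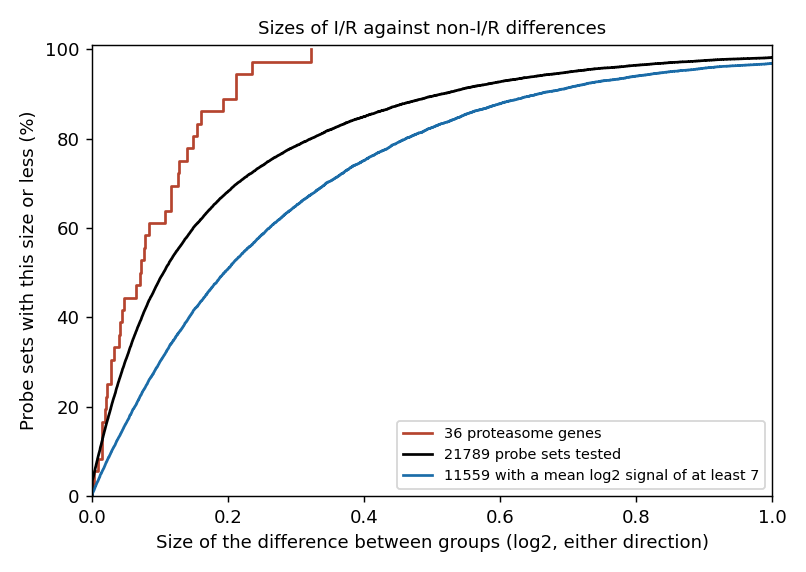
Share of probe sets (y axis, percent) with a difference between the groups of a given size or less (x axis, log2, either direction) for the 36 genes, for all 21789 probe sets tested and for the 11559 with a mean log2 signal of at least 7. The line of the 36 genes ends at 0.32, while both other lines are still below 100% at 1.

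Grafts of one group often differed from each other by as much as the groups did. The non-I/R grafts 2554 and 2556 were farther apart than the group means in 16 of 36 members (44.4%), against 36.3% of all probe sets. Graft 2555, an I/R graft, had the lowest signal of the 5 in 15 members, and the non-I/R graft 2554 had it in 13. The I/R graft 2557 had the highest signal in 17 members. Mean deviations of the 36 genes from their own means over the 5 grafts were -0.06 and 0.0033 in non-I/R 2554 and 2556, and 0.041, -0.061 and 0.076 in I/R 2553, 2555 and 2557. One non-I/R graft and one I/R graft were thus about equally low.

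Markers of cardiomyocytes, neutrophils and atrial muscle differed between the same grafts by more. Other marker lists varied, beside a median size of the group difference of 0.071 for the members. It was 0.058 for red blood cell, 0.13 for lymphocyte, 0.14 for endothelial and 0.18 for macrophage markers. For fibroblast markers it was 0.33, and 0.60 for those of smooth muscle and pericytes. Summed over 8 of 8 cardiomyocyte markers, the signal was 73940 and 83750 units in the non-I/R grafts and 46820 to 58710 units in the I/R grafts, on a linear scale that undoes the log2 of the RMA value. For 8 of 8 neutrophil markers it was 4685 and 6459 units in the non-I/R and 8729 to 15920 units in the I/R grafts. Mean deviations of 4 atrial markers were 1.31 in non-I/R 2554 and 1.17 in I/R 2555, the 2 grafts with the lowest mean of the proteasome genes, and -1.56, -0.95 and 0.027 in 2556, 2553 and 2557. Tnnt2, Myh6 and Actc1, which define heart muscle, had log2 signals of at least 12.2 in every graft. How far the mixture of cells takes part in any value below was not tested, and in bulk tissue fewer cells of a type cannot be told apart from less RNA in each cell.

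In the core particle, 5 genes had a higher mean in the I/R grafts and 10 a lower one, with a median log2 difference of -0.02 over its 16 genes. In the regulatory particle 14 of 17 genes had a higher mean, with a median of 0.076. The share of all probe sets with a higher mean was 44.0%, dim ones included. Probe sets with a mean of at least 7 had a positive median difference of 0.027. The 2 particles were farthest apart in 1 control graft: the mean deviation of non-I/R 2554 was -0.10 over the regulatory particle and -0.005 over the core particle. Non-I/R 2556 was at -0.0042 and 0.015 in the same order. Graft 2557 was the highest in both, with 0.10 and 0.054, and 2555 was negative in both, with -0.037 and -0.084.

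**Figure D3:**
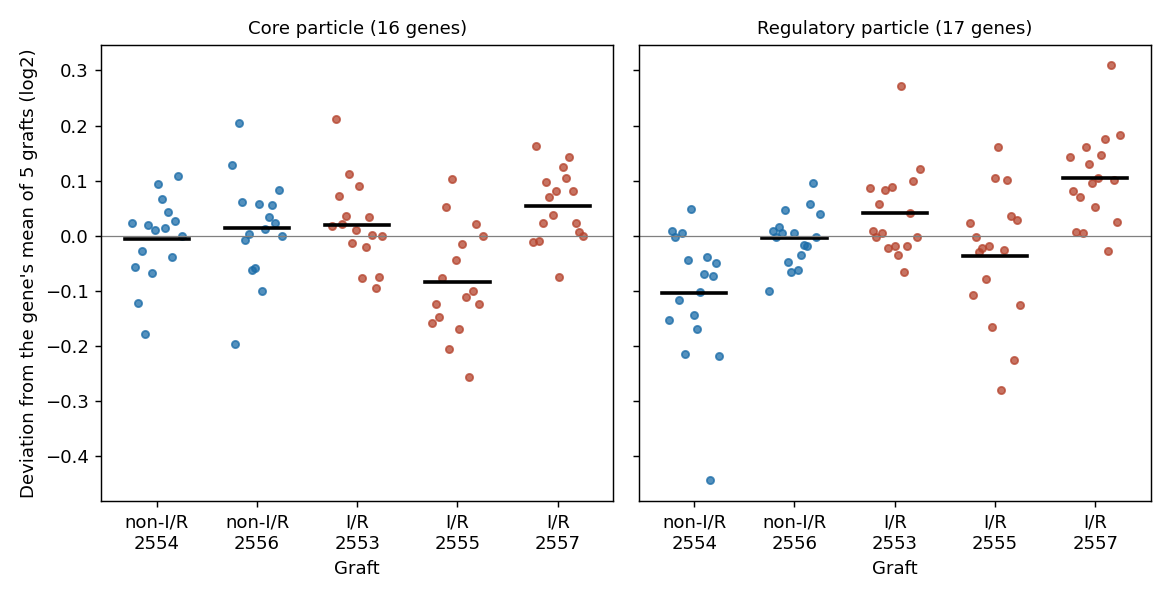
Deviation of each gene from its own mean over the 5 grafts (y axis, log2) in each graft (x axis), for the 16 genes of the core particle and the 17 of the regulatory particle. Points are genes, blue in non-I/R and red in I/R, and the black bar is the mean over genes, which for the regulatory particle is lowest in non-I/R 2554 at -0.10.

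Of the 8 genes of the alpha ring, whose N-termini form the gate of the core, 4 had higher and 4 lower means in the I/R grafts. Values of single grafts are given from here on in the order 2554 and 2556 (non-I/R), then 2553, 2555 and 2557 (I/R). Psma7 had log2 signals of 9.34 and 9.34 in the non-I/R grafts and 9.39, 9.51 and 9.44 in the I/R grafts. All I/R grafts lay above both non-I/R grafts, but the difference was 0.11 (SE 0.043; limma, adjusted p = 0.366). Psma5 was at 9.43 and 9.60 in the non-I/R grafts and 9.64, 9.66 and 9.70 in the I/R grafts, again with the groups apart, and differed by 0.15 (SE 0.062, adjusted p = 0.369 by limma). Its other probe set gave 0.17 (SE 0.075). Psma1 went the other way, with 10.93 and 11.04 in the non-I/R grafts and 10.92, 10.75 and 10.89 in the I/R grafts, a difference of -0.13 (SE 0.073, adjusted p = 0.477 by limma) and every I/R graft below the lower non-I/R graft. For Psma2 the signals were 9.73 and 9.59 in the non-I/R grafts and 9.997, 9.66 and 9.95 in the I/R grafts, and I/R 2555 lay between the non-I/R grafts (difference 0.21, 95% interval -0.16 to 0.58). Psma3, Psma4 and Psma6 differed by -0.07, -0.03 and -0.02, and the further 2 probe sets of Psma3 by -0.13 and -0.028. Psma8, which takes the place of Psma7 in the proteasomes of male germ cells, had log2 signals between 5.05 and 5.19, under the array medians of 6.58 to 6.65, and differed by 0.04.

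In the beta ring the 3 subunits that carry the active sites had slightly lower means in the I/R grafts. Psmb5, which has the chymotrypsin-like site, was at 12.12 and 12.21 in the non-I/R grafts and 12.16, 12.05 and 12.24 in the I/R grafts, with the highest and the lowest graft both in the I/R group. Its difference was -0.01 (SE 0.07, 95% interval -0.21 to 0.18). Psmb6, the caspase-like subunit, had 10.49 and 10.49 in the non-I/R grafts and 10.37, 10.49 and 10.49 in the I/R grafts, so that 4 grafts lay within 0.01 of each other and I/R 2553 was lower (difference -0.04, 95% interval -0.18 to 0.09). Both genes hold the element core shown above. Psmb7 (probe set 10482229), the trypsin-like subunit, had 11.10 and 11.07 in the non-I/R grafts and 10.91, 10.86 and 10.99 in the I/R grafts. Every I/R graft was below both non-I/R grafts, with means of 10.92 ± 0.066 (SD, n = 3) and 11.08 ± 0.017 (SD, n = 2). The difference of -0.16 (SE 0.048; limma, adjusted p = 0.303), or 1.12-fold, was the only one at an unadjusted p under 0.05 among the lower members. Its p was above 0.05 in 11 of 19 other settings of the analysis, among them with non-I/R 2554 left out (difference -0.15), I/R 2553 left out (-0.15), I/R 2555 left out (-0.13) and non-I/R 2556 left out (-0.17).

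Of the remaining genes of the beta ring, Psmb1, Psmb2, Psmb3 and Psmb4 encode subunits without an active site. Psmb1 had 10.14 and 10.11 in the non-I/R grafts and 10.14, 9.88 and 9.97 in the I/R grafts, with I/R 2553 inside the range of the non-I/R grafts and a difference of -0.13 (SE 0.089). Psmb2, Psmb3 and Psmb4 differed by 0.03, -0.02 and -0.07, and the other probe set of Psmb3 by -0.024. Psmb11, known from the epithelium of the thymus, had the same value of 5.55 on all 5 arrays. Over the 16 genes of the core particle 2 had every I/R graft above and 2 every I/R graft below the non-I/R grafts, and over all 36 members these counts were 5 (13.9%) and 2 (5.56%), against 15.8% and 16.2% of all probe sets tested.

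Among the 6 ATPases that form the motor of the regulatory particle, Psmc1 was the only one at an unadjusted p under 0.05 by limma. Psmc1 (probe set 10397741), whose tail docks into the alpha ring and helps to open its gate, had 9.97 and 10.03 in the non-I/R grafts and 10.21, 10.15 and 10.27 in the I/R grafts, and all 3 I/R grafts were above both non-I/R grafts. Means were 10.21 ± 0.06 (SD, n = 3) in I/R and 10.001 ± 0.038 (SD, n = 2) in non-I/R grafts. The difference was 0.21 (SE 0.047; limma, adjusted p = 0.284), or 1.16-fold. Its dimmer probe set gave only 0.069 (SE 0.06), with non-I/R 2556 and I/R 2555 both at 9.99. The brighter probe set differed by 0.18 with non-I/R 2554 left out and by 0.21 with both 2554 and 2555 left out. Each of these settings leaves 1 non-I/R graft. Psmc4 and Psmc6 differed by 0.08 and 0.14, and Psmc2, Psmc3 and Psmc5 by -0.01, 0.0029 and -0.0092. Psmc3 spanned 0.0093 over all 5 grafts and Psmc5 0.028, but both held exactly repeated values. Psmc2 and Psmc3 had 3 distinct values over the 5 grafts and Psmc5 had 2. Small ranges made of repeated values are no measure of steady levels.

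The non-ATPase subunits of the base are the scaffolds Psmd1 and Psmd2 and the ubiquitin receptor Psmd4. Psmd4 had 9.30 and 9.41 in the non-I/R grafts and 9.44, 9.63 and 9.58 in the I/R grafts, with the groups apart and a difference of 0.19 (SE 0.077; limma, adjusted p = 0.369). Psmd1 had its I/R grafts above the non-I/R grafts too, by 0.08 (95% interval -0.09 to 0.25). For Psmd2 the difference was 0.01, and -0.036 with its other probe set. The 3 base subunits had a median difference of 0.076.

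The lid holds the enzyme that cuts ubiquitin from the substrate, Psmd14, and 7 of its 8 genes had a higher mean in the I/R grafts without any of them reaching an unadjusted p of 0.05 by limma. Psmd11, which clasps the regulatory particle to the core, had 10.54 and 11.05 in the non-I/R grafts and 11.03, 11.02 and 11.30 in the I/R grafts. Here non-I/R 2554 was low and non-I/R 2556 lay among the I/R grafts, so the difference of 0.32 (SE 0.20; limma, adjusted p = 0.477) became 0.07 without 2554 and 0.57 without 2556. Psmd3 had 9.80 and 9.95 in the non-I/R grafts and 9.92, 10.05 and 9.99 in the I/R grafts, a difference of 0.12 (SE 0.066) with overlapping groups. Psmd13 had 9.69 and 9.73 in the non-I/R grafts and 9.73, 9.76 and 9.76 in the I/R grafts, all within 0.08. Psmd14 itself differed by 0.15 (95% interval -0.24 to 0.54), and it was lower in non-I/R 2554 and in I/R 2555, at 10.86 and 10.95, than in the other grafts at 11.11 to 11.26. Its partner Psmd7 differed by 0.07, and Psmd6, Psmd8 and Psmd12 by 0.12, 0.05 and -0.02. Both the highest and the lowest signal of Psmd6 came from I/R grafts, 10.66 in 2553 and 10.11 in 2555.

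Psmd5, Psmd9 and Psmd10 bear subunit names but are chaperones that hold ATPases during assembly and leave the finished particle. Psmd5 had 8.96 and 9.31 in the non-I/R grafts and 9.41, 9.30 and 9.39 in the I/R grafts, so non-I/R 2554 was the lowest graft and 2556 lay within the I/R range (difference 0.24, SE 0.12). The difference was 0.06 without 2554 and 0.41 without 2556. Psmd9 had 1 value on 4 arrays, 7.43, and 7.50 in non-I/R 2554. Psmd10 differed by 0.08 (95% interval -0.45 to 0.61).

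Of the alternative caps of the core particle, 3 had lower means in the I/R grafts, all short of an adjusted p of 0.05 by limma. Psme4, the nuclear activator PA200 that is known for acting on histones, had 11.72 and 11.49 in the non-I/R grafts and 11.13, 10.90 and 10.97 in the I/R grafts, a difference of -0.60 (SE 0.11; limma, adjusted p = 0.282) or 1.52-fold. Psme1, a subunit of the interferon-inducible activator PA28, had 10.51 and 10.18 in the non-I/R grafts and 9.87, 9.66 and 9.75 in the I/R grafts and a difference of -0.58 (SE 0.13; limma, adjusted p = 0.284), or 1.5-fold. Its partner Psme2 had 10.35 and 10.17 in the non-I/R grafts and 10.12, 9.78 and 9.87 in the I/R grafts and a difference of -0.34 (SE 0.13; limma, adjusted p = 0.363). For all 3 genes every I/R graft was below both non-I/R grafts, which held for 16.2% of all probe sets tested. Without non-I/R 2554 and I/R 2555, which leaves 1 non-I/R graft, the differences of Psme4, Psme1 and Psme2 were -0.44, -0.37 and -0.17. Psme3, the nuclear PA28 subunit, differed by 0.20 and the inhibitor Psmf1 by 0.19 (SE 0.066; limma, adjusted p = 0.332). Cardiomyocyte and neutrophil markers moved between the same groups, as given above, and their part in these values was not tested.

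The 3 immunoproteasome subunits, which replace the catalytic ones in immune cells and after interferon, also had lower means in the I/R grafts, but with wide intervals. Psmb9 had 8.62 and 8.16 in the non-I/R grafts and 8.16, 8.05 and 7.87 in the I/R grafts, a difference of -0.37 (SE 0.18; limma, adjusted p = 0.437). Psmb10 had 9.59 and 9.26 in the non-I/R grafts and 9.24, 9.17 and 9.11 in the I/R grafts, with the groups just apart and a difference of -0.25 (SE 0.12). Psmb8 had 7.65 and 7.58 in the non-I/R grafts and 7.58, 7.65 and 7.23 in the I/R grafts and a difference of -0.13 (SE 0.15). All 3 were highest in non-I/R 2554 and lowest in I/R 2557, with mean deviations over the 3 genes of 0.29 and 0.0073 in the non-I/R grafts and -0.0004, -0.041 and -0.26 in the I/R grafts. Mean deviations of 6 fibroblast markers were 0.39 and -0.015 in the non-I/R grafts and 0.05, -0.19 and -0.24 in the I/R grafts. Those of 8 macrophage markers were 0.29 and -0.25, then 0.18, 0.044 and -0.27, and those of 7 measured lymphocyte markers were 0.055 and -0.061, then 0.018, 0.0077 and -0.019. The part of these cells in the immunoproteasome values was not tested. Each immunoproteasome subunit was then set against the constitutive subunit it replaces within each array. The I/R minus non-I/R difference of this log ratio was -0.12 for Psmb8 over Psmb5, -0.32 for Psmb9 over Psmb6 and -0.093 for Psmb10 over Psmb7. Exact two-sided permutation tests gave p = 1, 0.4 and 0.6 (1, 0.9 and 0.9 adjusted over the 3 pairs). With 3 grafts against 2 such a test cannot go below 0.1, so these p-values could not have passed 0.05 and say nothing for or against a shift.

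**Figure D4:**
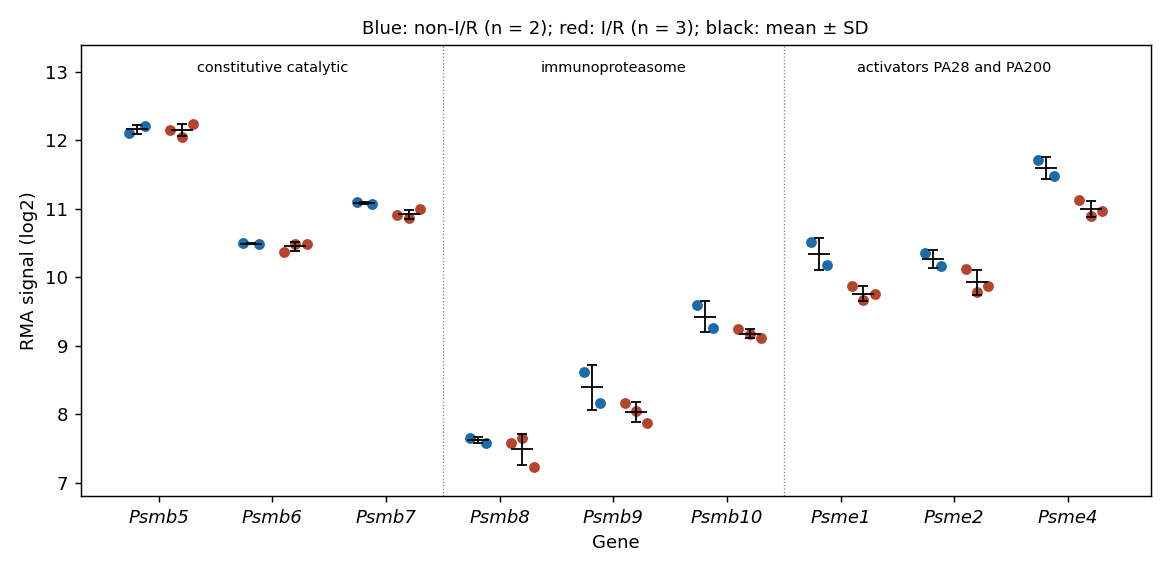
RMA signals (y axis, log2) of the catalytic subunits, their immunoproteasome counterparts and 3 activators (x axis) by graft. Blue points are the 2 non-I/R and red points the 3 I/R grafts, with mean ± SD in black. Psmb5 and Psmb6 overlap between the groups, and all I/R grafts lie below the non-I/R grafts for Psmb7, Psmb10, Psme1, Psme2 and Psme4.

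Of the regulators of the subunit genes, neither NRF factor separated the groups. Nfe2l1 had 11.39 and 11.32 in the non-I/R grafts and 11.32, 11.28 and 11.15 in the I/R grafts, a difference of -0.10 (SE 0.066, 95% interval -0.29 to 0.08). NRF1 is controlled chiefly at the level of its protein, which these arrays do not measure. Nfe2l2 had 10.998 and 11.26 in the non-I/R grafts and 11.47, 11.26 and 11.26 in the I/R grafts, with non-I/R 2556 and 2 I/R grafts at the same value and a difference of 0.20 (SE 0.12). Limma called 7.64% of all probe sets higher at an unadjusted p under 0.05, and 13.3% of those with a mean of at least 7. The list of 7 measured genes is not confined to regulators of the subunit genes. Of these 7 only Zfand2a, a stress-induced protein that binds the proteasome, was so called. It was at 10.71 and 10.69 in the non-I/R grafts and 11.39, 11.02 and 11.27 in the I/R grafts, with the groups apart and a difference of 0.53 (SE 0.12, adjusted p = 0.286 by limma). Vcp, the ATPase that pulls tagged proteins out of complexes and membranes, differed by 0.0017 (95% interval -0.10 to 0.11).

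Genes around the particle showed the following. The 5 chaperones of core assembly had a median difference of -0.014, led by Pomp with -0.10 (SE 0.078) and Psmg1 with 0.06 (SE 0.037). Sem1, a lid subunit outside the naming scheme, differed by -0.03. Among 5 measured proteasome-associated factors Ipo9, which imports proteasomes into the nucleus, differed by 0.26 (SE 0.08; limma, adjusted p = 0.311) and Ecpas, which binds core and regulatory particle, by -0.21 (SE 0.087). Of 7 measured deubiquitinases and shuttles, Ubqln1, a shuttle for ubiquitin-tagged proteins, had 0.34 (SE 0.096; limma, adjusted p = 0.294) and Rad23b 0.26 (SE 0.13), while the deubiquitinases Usp14 and Uchl5 had -0.001 and 0.0009. Of 6 adaptors of Vcp, 3 were higher at limma's unadjusted 0.05: Nploc4 with 0.26 (SE 0.066), Ufd1 with 0.21 (SE 0.064) and Faf2 with 0.38 (SE 0.13). Of all probe sets 7.64% were higher at that p, and 13.3% of those with a mean of at least 7. The median of the 6 adaptors was 0.23, and 5 of 6 had their lowest signal in non-I/R 2554. Uba6, an enzyme that activates ubiquitin, differed by 0.34 (SE 0.13). Over all 40 measured genes of these lists, of 49 listed, limma gave an unadjusted p under 0.05 for 7 that were higher (17.5%) and 2 that were lower (5.0%). The shares were 7.64% and 7.35% of all probe sets, and 13.3% and 10.7% of those with a mean of at least 7. The median difference of the 40 genes was 0.0076. With any single graft left out, Psme4 and Psme1, the 2 lower ones, differed by -0.72 to -0.49 and by -0.75 to -0.42. With both 2554 and 2555 left out they differed by -0.44 and -0.37. The 7 higher ones, Psmf1, Ipo9, Zfand2a, Ubqln1, Nploc4, Ufd1 and Faf2, differed by 0.18, 0.19, 0.54, 0.24, 0.19, 0.22 and 0.28 without non-I/R 2554. That leaves 1 non-I/R graft, which weakens a test even where a difference does not shrink, so only differences are given.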

How the data were processed

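Gene expression was measured in 5 heart grafts, 3 I/R and 2 non-I/R. The authors deposited log2 values made with Partek and RMA (versions not given in the sources used here), 35556 probe sets in 1 table. No genome build is given there, so probe sets have no coordinates here, and those of promoter windows come from RefSeq. Probe sets with a single symbol (21789; 1621 have several and 12146 are not listed) were tested as deposited with limma 3.58.1 (lmFit, eBayes) in R 4.3.3, with p-values adjusted by Benjamini-Hochberg over all of them. RMA brings the arrays close to a common distribution, so a shift of most genes at once would be largely removed. Medians of the deposited arrays still ran from 6.58 in I/R 2553 to 6.65 in I/R 2555. The median difference of the members was 0.025 with arrays centred on their medians and 0.04 with quantile normalization. Signals of different probe sets are not amounts that can be ranked, so log ratios and marker sums were compared between grafts only. Tied values on at least 2 arrays occurred in 9 members, and in 11715 of all probe sets. The labels give no batch or scan date, and p-values measure only the spread between these grafts. The gene family and the lists were picked with earlier results of these data known, although the naming rule uses no value. Every member is named, and single grafts are given for the 12 smallest p, the catalytic subunits and Nfe2l1 and Nfe2l2. Of each other list the 2 smallest p are named, with others where needed. Exact permutation tests used scipy 1.17.1. The fit was tested on simulated data. Alternatives were each graft left out, other eBayes settings, array weights and other normalizations. Further ones were filters on dim or tied probe sets, the probe set rule and the ordinary t-test.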

Additional observations from a re-analysis of the deposited data

How the results depend on the processing

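No member passed an adjusted p of 0.05 in any of 19 other settings, and the median difference of the members ran from -0.0001 to 0.076. The number of members at an unadjusted p under 0.05 by limma was 2. It was 4 without I/R 2553, 3 without I/R 2555 and 2 without I/R 2557. It was 1 with trended eBayes and with arrays centred on their medians. It was also 1 with probe sets of a mean of at least 7 and with the ordinary t-test. It was 0 without probe sets that have tied values (27 members left) and 3 with array weights. Settings without 2554 or 2556 leave 1 non-I/R graft, so no such number is given for them. The setting without both 2554 and 2555 was chosen after the atrial markers had been seen. Psmc1 was above the threshold in 3 settings and Psmb7 in 11, some of them with 1 non-I/R graft. Fewer grafts weaken the test even where a difference does not shrink. Members with every I/R graft above the non-I/R grafts numbered 5, with 5 to 15 when 1 graft was left out and 17 without both 2554 and 2555. Those with every I/R graft below numbered 2, with 2 to 5 when 1 graft was left out, 4 with quantile normalization and 4 without both. Fewer grafts make such a separation easier by construction. Shares over all probe sets were not counted in these settings. None of these counts, at a p or by separation, is therefore read as a result about the members. Differences of log ratios for the pairs ran from -0.24 to 0.056 for Psmb8 over Psmb5, from -0.55 to -0.096 for Psmb9 over Psmb6 and from -0.24 to 0.059 for Psmb10 over Psmb7 with 1 graft left out. Psmg2, a chaperone of core assembly, differed by -0.014, between -0.082 and 0.10 with 1 graft left out, and the highest value, without I/R 2555, had an unadjusted p of 0.0258 by limma. The cause was not tested. Of the 7 higher genes around the particle, 3 were above an unadjusted p of 0.05 by limma without 2553, 4 without 2555 and 5 without 2557. All 7 kept a positive difference with any single graft left out. No paired analysis was possible because the labels give no replicate numbers. The number of arrays limits the precision.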
